A study of Mus musculus with 24 samples.

Results

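Subcutaneous adipose tissue (SAT) of mice fed a high-fat diet for 20 weeks was compared with SAT of mice fed a low-fat diet for the same time. The comparison used 7 of the 24 RNA sequencing libraries of the series: high-fat replicates 3, 4, 5 and 6 and low-fat replicates 3, 5 and 6. All 7 came from whole SAT of wild-type male C57BL/6J mice. The high-fat diet held 60% of its calories as fat and the low-fat diet 10%. The libraries were selected on measured values: low-fat replicate 1 was left out for its levels of epididymis genes, Hoxc10 and Tbx15, and genes that followed skeletal muscle RNA were marked. The remaining libraries belong to mice fed for 8 weeks in a comparison of Azin2 genotypes and were not used here. The labels give no age at the start of feeding and do not state whether a library holds 1 animal or a pool. The diet comparison asks how long high-fat feeding changes the transcripts of this fat depot.

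White fat stores triglyceride in adipocytes, which take up glucose and fatty acids under insulin and release fatty acids when catecholamines act on beta-adrenergic receptors. Around the adipocytes lie progenitor cells, fibroblasts, vessels, nerves and immune cells. In obesity, macrophages gather in the tissue, many of them loaded with lipid and rich in lysosomes, and the extracellular matrix is laid down anew. Since whole tissue was sequenced, a lower level of a transcript from fewer cells of a type and one from less RNA per cell cannot be told apart.

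Libraries held 35.58 to 41.34 megareads counted to genes. Levels are given as normalised read counts per megaread (CPM), in the order high-fat replicates 3, 4, 5 and 6 and then low-fat replicates 3, 5 and 6. Fold changes are on the log2 scale, high-fat over low-fat, so that 1 stands for a 2-fold rise. The standard error given with them is the size of the change divided by the square root of the test's F value. It is derived from the test and is not a separate estimate. A gene was called where its adjusted p was under 0.05 (edgeR's quasi-likelihood test, Benjamini-Hochberg adjustment over the 17268 genes tested). The diet groups differed widely: 4054 genes were called higher (23.5% of those tested) and 4055 lower (23.5%). With a change of at least 2-fold as well, 1468 were higher (8.50%) and 809 lower (4.68%). Together 8109 were called (47.0%). The groups did not overlap in 9023 genes (52.3%), 4378 higher (25.4%) and 4645 lower (26.9%). Every count of list members below is to be read against these shares.

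The label of the tissue was checked first. The subcutaneous depot genes Hoxc10 and Tbx15 were present in all 7 libraries, Hoxc10 at 18, 18.4, 19.7 and 20.4 CPM of the total count in the high-fat and 31.5, 25.5 and 26.4 CPM in the low-fat libraries. Of 9 depot genes tested, 5 were called lower and 0 higher (median -0.63, 0 lower with low-fat replicate 1, and 3 without high-fat replicate 3 or 6). Hoxc10 and Tbx15 are among the 9 and also served to choose the libraries. In low-fat replicate 1, Hoxc10 was at 0.0469 CPM and Tbx15 at 0.117 CPM. That library also held 53410 CPM of 15 epididymis genes summed, against at most 0.702 CPM in each of the 7. These are the values by which that library was chosen for removal. The adipocyte genes Adipoq, Plin1, Cidec and Fabp4 were high in all 7, and the defining markers of mesothelium (Upk3b, Msln, Wt1), skin keratinocytes (Krt5, Krt14) and lymph node stroma (Ccl21a) were at 0.2 CPM or less in each. The epithelial factor Trp63 was above that level and moved with diet, at 2.16, 1.26, 1.94 and 2.33 CPM in the high-fat and 11.5, 5.6 and 6.12 CPM in the low-fat libraries (-2.10 ± 0.31). Of the 13 skin and mammary epithelium genes 6 were tested, and Trp63 and Cdh1 (-2.10 ± 0.30) fell. Of the 9 mesothelium genes 3 were tested, and Lrrn4 (-3.25 ± 0.32) and Gpm6a (-0.93 ± 0.32) fell, the latter not without high-fat replicate 4, 5 or 6 or low-fat replicate 5 or 6 (adjusted p up to 0.145). The epithelial list summed to 4.45 to 15.1 CPM in the high-fat and 11.4 to 30.1 CPM in the low-fat libraries, and the mesothelium list to 2.19 to 3.02 and 5.21 to 9.01 CPM. Their part in other results was not tested. The lymphoid follicle gene Cxcl13 was at 0.484 to 1.62 CPM. Cr2, another such gene, was low and moved with diet. It was at 0.50, 0.42, 0.35 and 0.51 CPM in the high-fat and 0.11, 0.18 and 0.048 CPM in the low-fat libraries. Its change was 1.86 ± 0.44 (adjusted p = 0.00802). Cr2 also counts in the B cell and complement lists below, and its source was not tested.

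Skeletal muscle transcripts differed widely within each diet group and leaned to the low-fat side. The 16 muscle genes summed to 97.4, 76.7, 82.7 and 7377 CPM in the high-fat libraries and to 88.3, 26030 and 1336 CPM in the low-fat ones. Low-fat replicate 5 was highest, followed by high-fat replicate 6 and low-fat replicate 6, as the plot of marker lists shows. Of the 16 genes 15 were tested, with changes from -7.06 to -1.41 (median -2.11). Of these, 1 was called lower, 0 with low-fat replicate 1 and 0 to 2 on leaving out 1 library. A gene was marked where both libraries, low-fat replicate 5 and high-fat replicate 6, held at least 2-fold more than every other library of their own group, or where it was in the muscle list. This marked 189 genes (median -2.16), of which 2 were called, both lower. The mark does not catch every such gene: Mb, the oxygen store of muscle, chosen after its values were seen, was at 2.02 CPM or less in the high-fat libraries and at 1.03, 221 and 14 CPM in the low-fat ones. It was called lower, and leaving out any 1 library other than low-fat replicate 3 ended that call (adjusted p up to 0.117). Some results are therefore also given without low-fat replicate 5 and high-fat replicate 6 (the muscle-rich libraries), and list counts with low-fat replicate 1 put back. Leaving the muscle-rich libraries out keeps low-fat replicate 6, at 1336 CPM of muscle genes, so it does not remove all muscle RNA.

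**Figure D1:**
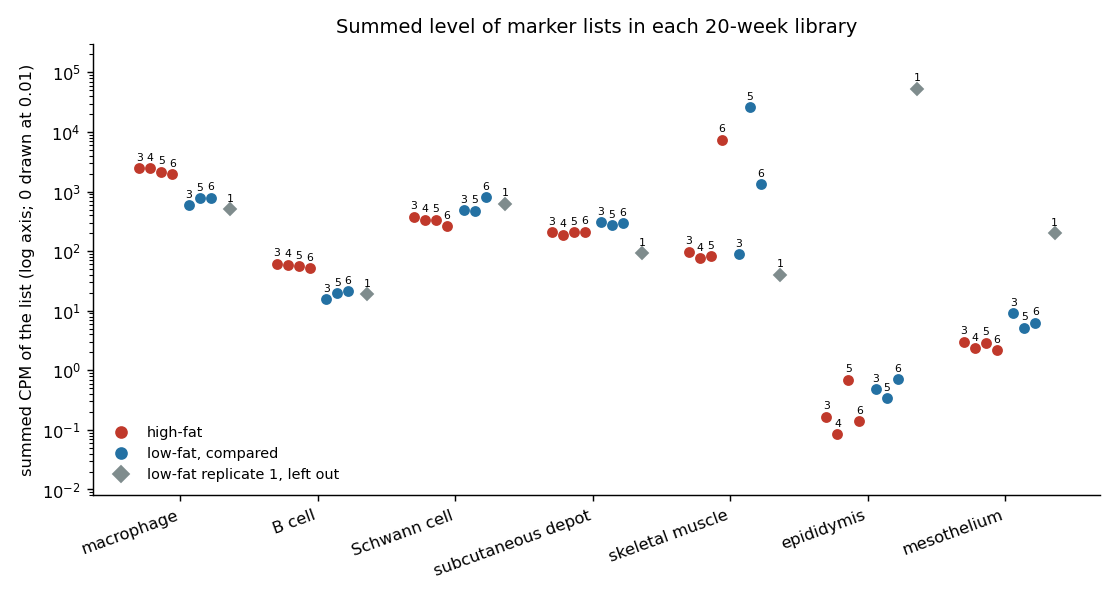
Summed CPM of marker lists (log axis) in each 20-week SAT library, with the replicate number above each point; red, high-fat; blue, low-fat libraries compared; grey diamonds, the low-fat library left out. Macrophage and B cell sums are higher in every high-fat library than in any low-fat one, muscle sums are high in low-fat replicate 5 and high-fat replicate 6, and low-fat replicate 1 stands alone in epididymis transcripts.

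Macrophage genes rose. Of 20 measured, 16 were called higher and 0 lower, with a median of 1.45 against -0.017 for all genes tested. Once low-fat replicate 1 was put back, 15 were higher. Cd68, a glycoprotein of macrophage lysosomes on chr11:69664213-69666153 (GRCm38), was at 125, 159, 145 and 118 CPM on the high-fat diet and 13.6, 16.8 and 21.4 CPM on the low-fat diet. Each high-fat library held more than each low-fat one, and the change was 2.98 ± 0.18 (adjusted p = 3.74e-05). Adgre1, which encodes the surface marker F4/80, was at 142, 172, 139 and 119.8 against 22.5, 29.8 and 27.5 CPM, a change of 2.43 ± 0.15 without overlap. Csf1r, the receptor of macrophage growth factors, rose less, by 1.45 ± 0.098. The mannose receptor gene Mrc1 rose by 1.59 ± 0.16 and Lyve1 by 0.99 ± 0.1, both often used to mark resident macrophages. Timd4, another such gene, was at 1.38, 0.98, 1.18 and 1.54 against 1.03, 1.52 and 1.54 CPM and did not pass (-0.099 ± 0.24, adjusted p = 0.758).

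Genes of lipid-associated macrophages, the lipid-loaded cells found around dying adipocytes, rose too. Of 16, 12 rose and 1 fell (median 1.89; 10 higher with low-fat replicate 1). The sum of macrophage markers also moved with diet, from 592 to 786 CPM in the low-fat to 1973 to 2481 CPM in the high-fat libraries, and whether the changes of single genes exceed it was not tested. Gpnmb, a lysosomal glycoprotein, was at 367, 467, 423 and 305 CPM on high-fat and 19.8, 20.2 and 20.8 CPM on low-fat diet. All high-fat libraries lay more than 10-fold above all low-fat ones, with a change of 4.27 ± 0.16 (adjusted p = 6.46e-06). Trem2, a lipid receptor of these cells, was at 53.9, 75.7, 63.3 and 47.1 against 1.42, 0.975 and 4.58 CPM, with the highest low-fat value in replicate 6. Itgax, the integrin CD11c, was at 82.3, 99.8, 106 and 78.8 against 3.46, 6.15 and 7.02 CPM, a change of 4.04 ± 0.28. Mmp12, macrophage elastase, changed by 5.85 ± 0.58 and the fusion gene Dcstamp by 3.94 ± 0.32. Against the rest of the list, Acp5, tartrate-resistant acid phosphatase, fell by 0.57 (from 424, 365 and 459 to 302, 262, 277 and 279 CPM, adjusted p = 0.00107). Spp1, osteopontin, did not pass: it was at 7.57, 9.47, 7.26 and 4.72 CPM on high-fat and 1.81, 3 and 9.46 CPM on low-fat diet, with low-fat replicate 6 inside the high-fat range. Without that replicate it was called (1.59, adjusted p = 0.00822).

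Atp6v0d2, a subunit of the lysosomal proton pump made by macrophages and osteoclasts, shows what the left-out library does. It was at 70.3, 102, 86.2 and 60.4 CPM on the high-fat diet and 0.864, 1 and 1.84 CPM in the 3 low-fat libraries compared, a change of 6.00 ± 0.36 (adjusted p = 6.68e-05). Low-fat replicate 1 held 76.5 CPM, as much as a high-fat library. With it the change was 1.98 and did not pass (adjusted p = 0.342).

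Lysosome genes rose. Of 38, 32 rose and 0 fell, 7 of them by at least 2-fold (8.50% of all genes), with a median of 0.47. The count was 18 with low-fat replicate 1. The cysteine protease cathepsin S, Ctss, was at 259, 281, 245 and 197 against 19.9, 29.7 and 38 CPM and had the largest change of the list (3.07 ± 0.25). Ctsd, cathepsin D, was at 873, 936, 878 and 879 against 388, 357 and 552 CPM, without overlap (1.04 ± 0.14). The galactosidase gene Gla rose by 1.34 ± 0.11, and the proton pump subunit Atp6v1a was at 193, 228, 206 and 194 against 115, 97.3 and 121 CPM (0.89 ± 0.094). Fcgr3 and Fcer1g, parts of receptors for antibodies, rose by 1.63 ± 0.14 and 1.49 ± 0.14, and the integrin chain Itgb2, shared by all leukocytes, by 2.66 ± 0.17. In that list of leukocyte integrins and Fc receptors 11 of 14 rose and 2 fell (10 higher and 1 lower with low-fat replicate 1): Itgae, the integrin CD103, from 6.55, 6.23 and 5.39 to 2.31, 2.15, 1.81 and 2.13 CPM, and Fcgrt, the neonatal Fc receptor, by 0.44.

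The promoters of the lysosome list were searched for a known element. The coordinated lysosomal element TCACGTG, bound by the MiT/TFE factors that drive lysosome genes, was searched on both strands from 250 bases before to 50 bases after the gene start (RefSeq, GRCm38.p6). A window was given for 28 of the 38 genes, and 9 held it (32.1%), against 4.29% of all 27025 genes with a window and 6.42% of those tested here. A gene was counted if any of its windows held the letters. The list was chosen as lysosome genes, which are known for this element, so the shares describe the list and not the diet. The 9 genes include members whose change did not pass. A match is a description of the letters and does not show binding. Here are the 150 bases before the start of 2 of these genes, 5′ to 3′ on the gene's strand, the minus strand for both, with the palindromic match in capitals (it reads as the motif on both strands).
Ctsd, chr7:142387828-142387977: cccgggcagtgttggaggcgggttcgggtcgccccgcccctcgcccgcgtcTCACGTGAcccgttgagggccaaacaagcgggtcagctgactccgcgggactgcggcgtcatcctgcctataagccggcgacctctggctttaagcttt
Atp6v1a, chr16:44139260-44139409: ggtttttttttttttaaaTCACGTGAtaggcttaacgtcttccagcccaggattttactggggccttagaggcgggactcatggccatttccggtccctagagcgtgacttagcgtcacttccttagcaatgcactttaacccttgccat

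Tfec, itself a gene of the MiT/TFE factor family, was low and rose from 0.39, 0.541 and 0.403 to 1.65, 2.39, 1.5 and 1.91 CPM (2.06 ± 0.25), without overlap. The other family members, taken with their values in view, rose less or did not pass. Mitf rose by 0.85 ± 0.11 and Tfe3 by 0.18 ± 0.066 (adjusted p = 0.0462). Tfeb did not pass (0.091 ± 0.11, adjusted p = 0.541). Their part in the rise of lysosome genes was not tested.

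Signals that draw leukocytes rose as ligands and as receptors. Of 24 chemokine ligands tested, 12 rose and 2 fell (9 higher and 1 lower with low-fat replicate 1). Ccl2, the monocyte attractant, was at 24, 18.7, 17.2 and 15.8 against 6.27, 4.41 and 6.24 CPM (1.74 ± 0.18, adjusted p = 1.95e-04), and Ccl9 was at 149, 182, 146 and 124 against 22.1, 24.6 and 39.4 CPM. Neither overlapped between groups. Ccl8 changed by 3.08 ± 0.45 and the neutrophil attractant Cxcl2 by 2.57 ± 0.24. Ccl27a, which draws lymphocytes to skin, fell from 6.24, 8.53 and 6.95 to 2.5, 2.34, 2.34 and 2.53 CPM, and Cxcl14 fell by 0.87. Of 17 chemokine receptors 8 rose (6 with low-fat replicate 1), among them Ccr1 (2.34 ± 0.36). The 1 that fell was Ccr10, the receptor of Ccl27a, from 0.78, 0.758 and 0.327 to 0.0531, 0.136, 0.169 and 0.141 CPM (-2.28 ± 0.45).

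Among cytokines and their receptors, 13 of 23 rose and 1 fell (10 higher and 1 lower with low-fat replicate 1). Il1rn, which encodes the antagonist of interleukin-1, showed the widest change of the list: it was at 21.4, 25.2, 22.7 and 16.2 CPM on the high-fat diet and 0.334, 0.352 and 0.906 CPM on the low-fat diet (5.31 ± 0.40, adjusted p = 1.02e-04). The tumour necrosis factor receptor Tnfrsf1b was at 79.1, 80.3, 78.8 and 74.1 against 30.9, 30.8 and 31.5 CPM, with little spread within either group. Il34, an alternative ligand of Csf1r, fell by 0.60. The toll-like receptor list rose in 13 of 17 members and fell in 0 (10 higher and 0 lower with low-fat replicate 1). Tlr13, a receptor for bacterial ribosomal RNA, was at 27.2, 30.9, 27.3 and 23.8 against 1.67, 1.49 and 2.64 CPM (3.81 ± 0.21), and Tlr7, Tlr1 and Tlr2 rose by 2.21, 2.15 and 1.15. The MS4A family, membrane proteins of myeloid and B cells, rose in 10 of 12 (8 with low-fat replicate 1), with Ms4a7 at 22.1, 24, 18.7 and 17.5 against 3.23, 4.9 and 5.13 CPM. Interferon response genes rose in 7 of 18, led by Oasl1 (1.34 ± 0.15), and in 11 without high-fat replicate 6 and 6 with low-fat replicate 1.

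Lymphocyte lists differed in their counts. B cell genes rose in 12 of 14 (median 1.42), while 3 of 22 T and NK cell genes rose (median 0.23), and 0 fell in either list. Both shares stand against 23.5% of all genes called higher, and the difference between the lists was not tested. Without low-fat replicate 5, 6 T and NK cell genes rose, and 2 did with low-fat replicate 1. Cd22, a B cell inhibitory receptor, was at 5.53, 5.66, 5.57 and 5.54 against 0.752, 0.379 and 0.755 CPM (3.14 ± 0.25, adjusted p = 4.72e-05). All of these levels are low, but the high-fat libraries lay within 0.2 CPM of each other and far from the low-fat ones. Pax5, the factor that fixes B cell identity, was at 1.59, 1.8, 1.47 and 1.69 against 0.557, 0.379 and 0.755 CPM. With low-fat replicate 1, 6 of the 14 were higher. Its B cell genes summed to 19 CPM, against 15.7 to 21.2 CPM in the other low-fat and 51.8 to 61 CPM in the high-fat libraries. The reason for the fewer calls was not tested. The immunoglobulin heavy chain gene Ighm rose by 1.16 ± 0.27, but Xbp1, which plasma cells and adipocytes both need for secretion, fell by 0.64. Mast cell genes rose in 8 of 11 (5 without the muscle-rich libraries and 6 with low-fat replicate 1), including the protease gene Cpa3 (3.13, 2.97, 4.42 and 3.31 against 0.864, 1.6 and 1.21 CPM) and Hdc, which makes histamine (1.45 ± 0.21). MHC class II genes, which present antigen, rose in 11 of 13, but 5 with low-fat replicate 1, 7 without the muscle-rich libraries, and as few as 7 without high-fat replicate 3 or 4.

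The complement list moved both ways, 14 of 23 higher and 5 lower (10 higher and 3 lower with low-fat replicate 1). The C1q chains C1qa and C1qb, made by macrophages, rose by 1.27 and 1.59, and C5ar1, the receptor of the fragment C5a, by 1.65 ± 0.11. Cfd fell the most in the list. It encodes adipsin, the protease that starts the alternative pathway and a main secreted protein of adipocytes (chr10:79890853-79892655, GRCm38). Cfd was at 444, 310.2, 412 and 478 CPM on the high-fat diet and 6214, 6867 and 5589 CPM on the low-fat diet. No library of one group came within 10-fold of the other, and the change was -3.92 ± 0.16 (adjusted p = 6.46e-06). It was -3.64 with low-fat replicate 1. C2, a protease of the classical pathway, fell from 15.1, 14.5 and 16.1 to 6.51, 4.25, 3.84 and 4.97 CPM, and C1s1 by 0.43.

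Every gene of the proliferation list rose. All 32 were called higher (26 of them by at least 2-fold, against 8.50% of all genes), with a median of 1.75. The groups overlapped in none of them, and 30 were higher with low-fat replicate 1. Mki67, a protein of dividing cells, was at 52.9, 52, 32.7 and 57.3 against 4.79, 5.85 and 12.9 CPM (2.63 ± 0.43). High-fat replicate 5 was the lowest of its group and low-fat replicate 6 the highest of its own. Ccnb2, a mitotic cyclin, was at 6.93, 7.02, 6.15 and 6.01 against 0.948, 1.3 and 1.66 CPM (2.32 ± 0.20, adjusted p = 7.16e-05). The spindle genes Tpx2 and Bub1b rose by 2.12 ± 0.19 and 1.67 ± 0.15, and Mcm6, part of the helicase that opens DNA for replication, by 1.15 ± 0.11. Which cells divide cannot be read from whole tissue.

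Cell cycle promoters often hold a CCAAT box, bound by NF-Y, near a cell cycle homology region, whose core reads TTTGAA or TTCGAA. A promoter window was given for 26 of the 32 genes. On either strand, 21 held CCAAT (80.8%, against 41.1% of all genes and 42.1% of those tested), and 14 held the core (53.8%, against 21.7% and 17%). The same 14 held both, against 8.61% of all genes. The list was chosen as cell cycle genes, which are known for these letters, so the shares describe the list and not the diet. The macrophage list was searched in the same way for GAGGAAGT. Of its 12 genes with a window, 1 held it (8.33%, against 3.69% of all genes and 3.79% of those tested). The 150 bases before the start of 3 genes that rose, all on the minus strand and written 5′ to 3′ on the gene's strand, show the elements in capitals, CCAAT alone in Ccnb1 and both in Cdk1 and Cdc20, with CCAAT as ATTGG where it lies on the other strand.
Ccnb1, chr13:100786487-100786636: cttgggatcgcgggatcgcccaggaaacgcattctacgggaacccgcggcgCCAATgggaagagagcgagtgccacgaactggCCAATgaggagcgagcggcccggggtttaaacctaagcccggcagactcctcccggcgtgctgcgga
Cdk1, chr10:69352913-69353062: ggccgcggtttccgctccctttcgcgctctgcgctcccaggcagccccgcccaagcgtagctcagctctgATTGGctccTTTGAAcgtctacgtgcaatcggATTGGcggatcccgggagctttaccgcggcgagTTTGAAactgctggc
Cdc20, chr4:118437344-118437493: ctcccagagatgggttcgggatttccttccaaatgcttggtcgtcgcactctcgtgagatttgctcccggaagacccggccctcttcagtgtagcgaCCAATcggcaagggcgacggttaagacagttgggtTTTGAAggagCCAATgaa

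Ccnb1 was at 6.56, 5.66, 5.62 and 5.82 against 0.836, 1.16 and 1.89 CPM, Cdk1 at 12.1, 12.3, 10.7 and 9.72 against 1.73, 1.54 and 4.08 CPM, and Cdc20 at 6.32, 5.93, 6.08 and 5.82 against 1.17, 1.6 and 3.22 CPM. In each of the 3 genes the groups did not overlap, and low-fat replicate 6 was the highest low-fat library.

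**Figure D2:**
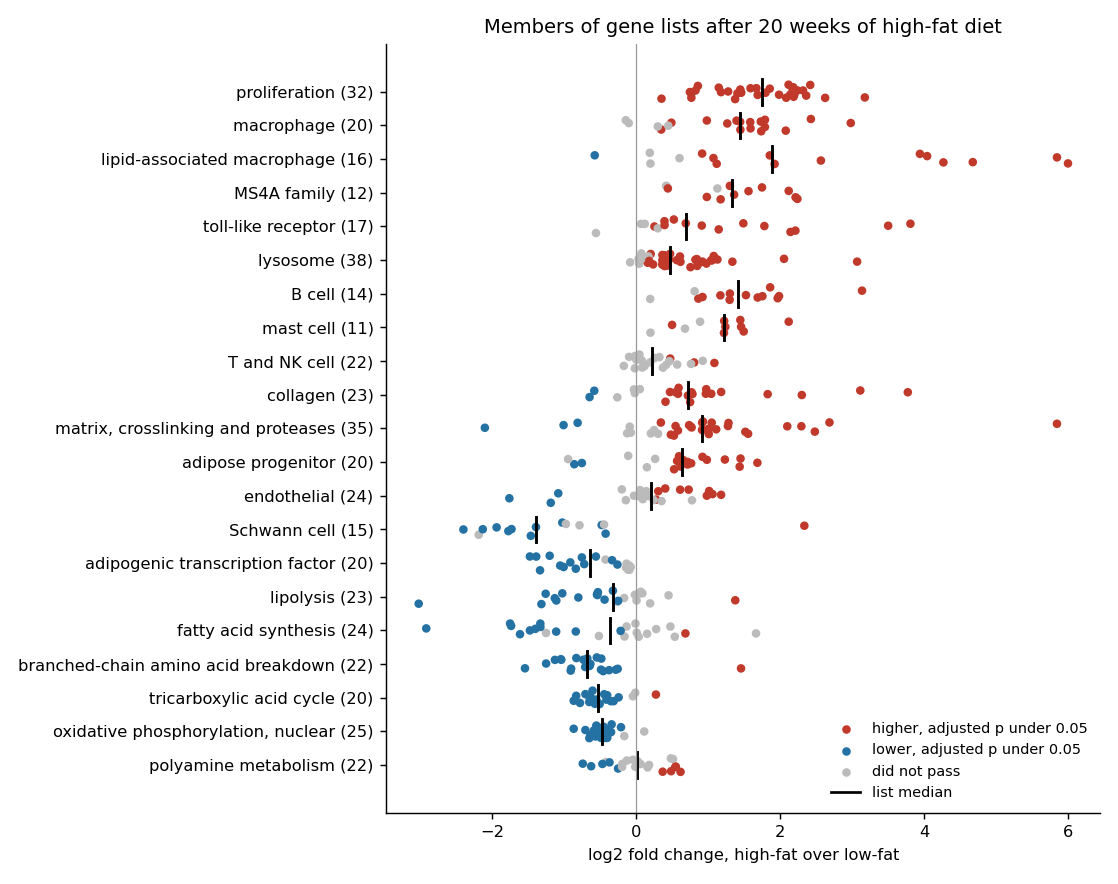
Log2 fold change (high-fat over low-fat) of each tested member of 21 gene lists, with the number of members in brackets; red, called higher; blue, called lower; grey, did not pass; black bar, list median. The proliferation list lies wholly to the right of 0 and the oxidative phosphorylation and tricarboxylic acid lists almost wholly to the left, while polyamine genes are centred near 0.

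Adipogenic transcription factors fell as a list. Of 20 transcription factors that make or keep adipocytes, 13 fell and 0 rose, with a median of -0.64 (5 lower with low-fat replicate 1). Klf15 was at 32.7, 26.1, 39.5 and 34.2 CPM on the high-fat diet and 90.2, 84.3 and 75.6 CPM on the low-fat diet (-1.33 ± 0.13, adjusted p = 1.61e-04). Mlxipl, the glucose-sensing factor ChREBP, fell by 1.47, Ebf2 by 1.00 and Rxrg by 1.05. Pparg, the master regulator of fat cells, did not pass: it was at 190.5, 184, 202 and 184 against 335, 189 and 241 CPM, and low-fat replicate 5 lay inside the range of the high-fat libraries (-0.42 ± 0.17, adjusted p = 0.0785). Without low-fat replicate 5 it was called (-0.60, adjusted p = 0.00669). Adipoq, adiponectin, fell from 2158, 2574 and 3059 to 1793, 1732, 1976 and 1943 CPM, without overlap (-0.48 ± 0.12, adjusted p = 0.00883). The other adipocyte markers differed. Plin1 fell by 0.90 ± 0.068, and Cidec rose by 0.35 ± 0.13, near the threshold (adjusted p = 0.0499). Fabp4 did not pass (-0.18 ± 0.092, adjusted p = 0.14).

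Secreted factors of fat split by gene, 6 of 20 higher and 7 lower (2 higher and 3 lower with low-fat replicate 1). Leptin, Lep, the hormone that reports fat mass, was at 3688, 4007, 4498 and 4402 CPM on the high-fat diet and 2585, 1238 and 2241 CPM on the low-fat diet (1.04 ± 0.24, adjusted p = 0.0107), lowest in low-fat replicate 5. Hp, haptoglobin, rose from 1589, 1641 and 1947 to 5179, 4649, 3505 and 4465 CPM. Retn, resistin, fell from 954, 840 and 878 to 374, 315, 351 and 398 CPM (-1.31 ± 0.091), and Rbp4, the retinol carrier, by 0.98. Mest and Peg3, imprinted genes tied to fat expansion, rose by 1.97 ± 0.42 and 1.44 ± 0.29. With low-fat replicate 1 the adjusted p of Lep was 0.115 and that of Adipoq 0.722, neither past the threshold.

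Genes that make fatty acids were lower on the high-fat diet, with a wide spread within the low-fat group. Of 24, 11 fell and 1 rose, with 9 lower by at least 2-fold (4.68% of all genes). Fasn, fatty acid synthase, was at 2345, 2520, 2486 and 2424 CPM in the high-fat libraries and 10310, 3124 and 4948 CPM in the low-fat ones. The high-fat libraries lay close together, and low-fat replicate 3 was far above its group (-1.33 ± 0.38, adjusted p = 0.0315). Omitting any single high-fat library, or low-fat replicate 6, ended the call (adjusted p up to 0.0741), and without low-fat replicate 3 the change was -0.72. Thrsp, a lipogenic regulator, was at 118, 123, 106 and 133 against 1424, 595 and 689 CPM (-2.91 ± 0.32), and Scd1, which desaturates stearate, at 15350, 15540, 14720 and 18540 against 45910, 34220 and 40560 CPM (-1.33 ± 0.12). Neither overlapped between groups. Acly, which supplies acetyl-CoA, did not pass: its low-fat values were 1340, 257 and 479 CPM and its high-fat values 288, 301, 288 and 288 CPM, so that replicate 5 fell below them (adjusted p = 0.116). Without that replicate it was called (-1.64, adjusted p = 0.0211). The citrate carrier Slc25a1 moved the other way, from 387, 241 and 328 to 541, 582, 455 and 474 CPM. With low-fat replicate 1, 10 of the 24 were lower.

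Lipolysis genes fell in 13 of 23 and rose in 1 (median -0.32; 2 lower with low-fat replicate 1 and 11 without the muscle-rich libraries). Adrb3, the beta-3 adrenergic receptor of adipocytes, was at 126, 129, 95.5 and 109.7 CPM on the high-fat diet and 941, 916 and 936 CPM on the low-fat diet. The low-fat values lay within 3% of each other, and every high-fat value was at least 7-fold below them (-3.02 ± 0.11, adjusted p = 6.46e-06). The lipase genes Pnpla2 and Lipe fell by 1.02 and 0.80, and the receptors for lactate and long-chain fatty acids, Hcar1 and Ffar4, by 1.10 and 1.25. Ptger3, a prostaglandin receptor, was the member that rose, from 71.1, 40.3 and 74.5 to 175, 157, 137 and 176 CPM (1.38 ± 0.23). The list mixes genes that drive lipolysis with genes that restrain it, so its counts give no direction of lipolysis.

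Triglyceride and droplet genes moved in both directions. Pck1, which makes the glycerol backbone from other carbon, fell from 2771, 4722 and 4145 to 649, 579, 698 and 741 CPM (-2.54 ± 0.18), while Gk, which phosphorylates free glycerol, rose from 12.8, 10.3 and 11.5 to 35.6, 40.3, 30.3 and 31.2 CPM (1.57 ± 0.12). Low-fat replicate 1 held 171 CPM of Gk, and with it the change was -0.59 (adjusted p = 0.673). On the droplet, Plin1, the perilipin of large droplets, fell by 0.90 and Cidea, which fuses droplets, from 34.8, 26.8 and 18.1 to 8.37, 3.7, 7.45 and 6.41 CPM. Plin2, the perilipin also found in macrophages, and Hilpda, which inhibits lipolysis, rose by 1.08 ± 0.15 and 1.52 ± 0.17. Of the 18 genes of lipid uptake and droplets, 7 rose and 4 fell (3 higher and 0 lower with low-fat replicate 1), and 4 rose without the muscle-rich libraries.

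For insulin action, Slc2a4, the insulin-responsive glucose transporter GLUT4, was at 94, 86.6, 102 and 118 CPM on the high-fat diet and 315, 319 and 266 CPM on the low-fat diet, without overlap (-1.58 ± 0.11, adjusted p = 3.42e-05). Muscle also makes Slc2a4, and the low-fat values stand in the order of replicates 3, 5 and 6, whose muscle genes summed to 88.3, 26030 and 1336 CPM. Irs1, the docking protein of the insulin receptor, fell from 127, 119.5 and 126 to 55.8, 52.2, 44.6 and 64.6 CPM. In the list as a whole 6 of 22 fell and 3 rose, against 23.5% of all genes in each direction (1 higher and 1 lower with low-fat replicate 1). In glycolysis 4 of 22 fell and 2 rose (1 higher and 2 lower with low-fat replicate 1). Hk3, the hexokinase of myeloid cells, rose from 3.79, 4.85 and 4.96 to 28.2, 32.9, 33.5 and 24.7 CPM, Hk2 fell by 0.66, and the lactate dehydrogenase chain Ldhb fell from 86.1, 100.2 and 82.5 to 31.7, 28, 28.7 and 32 CPM.

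**Figure D3:**
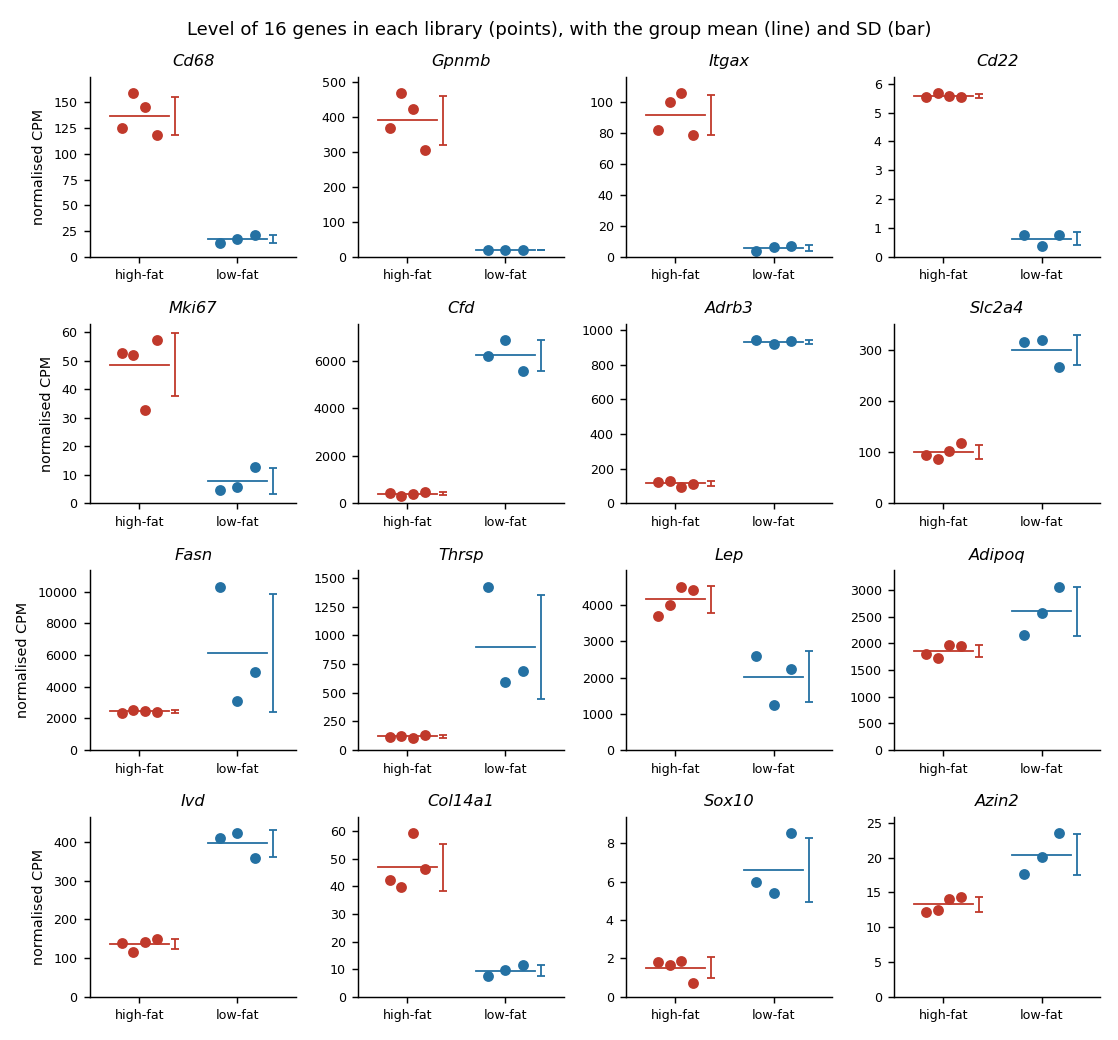
Normalised CPM of 16 genes in each library, on linear axes that start at 0; points are libraries in replicate order, lines are group means and bars are SD (n = 4 high-fat, red; n = 3 low-fat, blue). The groups are apart in all 16 genes; Fasn and Thrsp spread most within the low-fat group, with replicate 3 highest, and Adrb3 and Cd22 have nearly equal values within a group.

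Most genes of branched-chain amino acid breakdown, of the tricarboxylic acid cycle and of nuclear-encoded oxidative phosphorylation fell. Branched-chain amino acid breakdown, the pathway that burns leucine, isoleucine and valine, fell in 21 of 22 genes (median -0.68), and the groups overlapped in none of the 22. Ivd, which oxidises the leucine product isovaleryl-CoA, was at 139, 117, 141 and 149 CPM on the high-fat diet and 411, 422 and 358 CPM on the low-fat diet (-1.54 ± 0.097, adjusted p = 2.06e-05). Bcat2, the mitochondrial transaminase of the first step, fell by 1.25 ± 0.10, Dbt, a chain of the rate-limiting dehydrogenase, by 1.04 ± 0.07, and Aldh6a1, late in valine breakdown, by 1.12 ± 0.083. Bcat1, the cytosolic transaminase, was the exception and rose from 15.5, 14.1 and 19.4 to 39.3, 38.2, 55 and 47.3 CPM (1.46 ± 0.16). Without the muscle-rich libraries 21 still fell. With low-fat replicate 1, 8 did.

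The tricarboxylic acid cycle fell in 17 of 20 genes and rose in 1 (median -0.53). Sdha, a chain of succinate dehydrogenase, was at 404, 411, 410.1 and 425 against 696, 701 and 615 CPM (-0.70 ± 0.067), and Suclg2 fell by 0.83 ± 0.07. Dlat, a chain of pyruvate dehydrogenase, rose by 0.28 ± 0.074. Nuclear genes of oxidative phosphorylation fell in 23 of 25 (median -0.47), with 0 changed by 2-fold. Without the muscle-rich libraries, 16 and 22 fell. With low-fat replicate 1, 3 and 9 did. The respiratory genes on mitochondrial DNA were less uniform: 4 of 12 fell (1 with low-fat replicate 1), mt-Cytb by 0.46 ± 0.07, and mt-Nd2 rose by 0.27 ± 0.086, a call that ended on omitting any single high-fat library or low-fat replicate 3 (adjusted p up to 0.0812). Fatty acid oxidation fell in 10 of 21 and rose in 3 (0 higher and 2 lower with low-fat replicate 1). Cpt1a, the gate for fatty acids into mitochondria, rose from 95.8, 88.1 and 119 to 190, 203, 211 and 206 CPM, and Ppargc1a, the coactivator of mitochondrial genes, fell by 1.38 ± 0.25. The thermogenic adipocyte list fell in 5 of 17 and rose in 3, against 23.5% of all genes in each direction. Its median was -0.12, and 1 was higher and 1 lower with low-fat replicate 1. Among those that fell were Cidea, Ppargc1a and Ebf2. The other two that fell were Cox8b (-1.58 ± 0.36), a muscle and brown fat form of a cytochrome oxidase subunit, and Prdm16 (-0.61 ± 0.18), a factor of brown fat identity, not called without high-fat replicate 3, 4 or 6 (adjusted p up to 0.0619). Ucp1, the uncoupler of brown fat, was at 0.611, 0.708, 0.627 and 0.506 CPM on the high-fat and 0.251, 0.108 and 0.0503 CPM on the low-fat diet, called higher at under 1 CPM in every library. The other members that rose were Ckb (0.61 ± 0.12) and Zfp516 (0.37 ± 0.066).

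**Figure D4:**
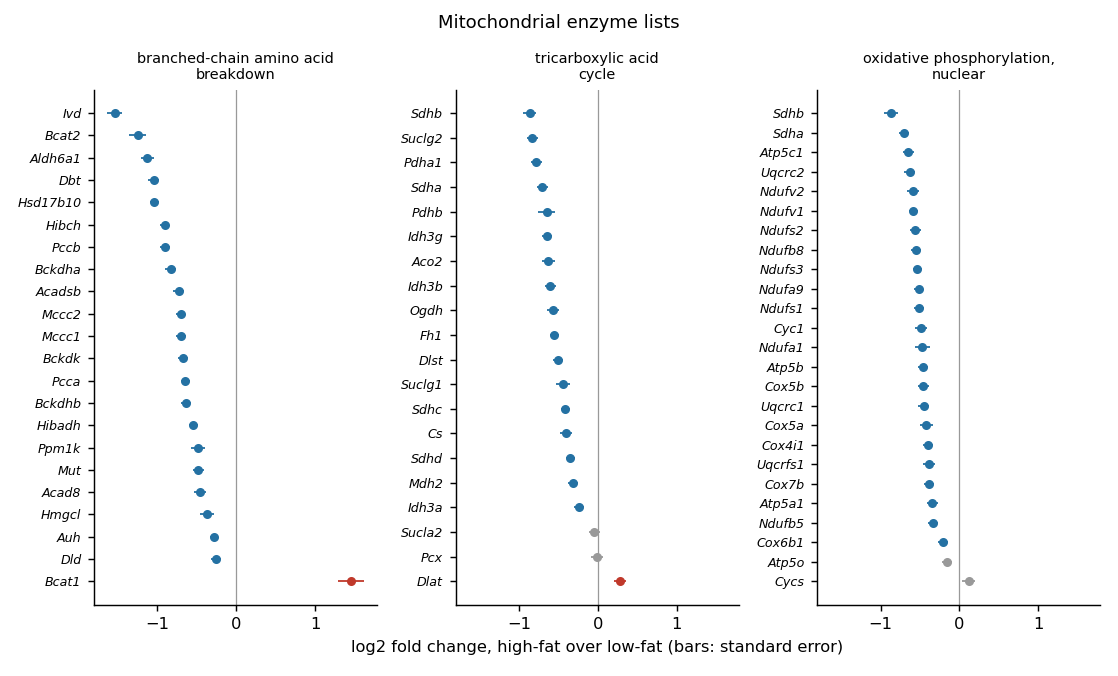
Log2 fold change with its standard error (derived from the test's F value) for each gene of 3 mitochondrial lists, sorted within the list; blue, called lower; red, called higher; grey, did not pass. The genes lie between about -1.54 and 0 except Bcat1, Dlat and Cycs, and standard errors are small beside the distance from 0 for most.

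The extracellular matrix list rose in 26 of 35 genes and fell in 3 (median 0.92), and collagens rose in 17 of 23 and fell in 2 (Col4a3 and Col4a4, 0 without high-fat replicate 4 or 5 or low-fat replicate 5). Postn, periostin, was at 575, 674, 536 and 537 CPM on the high-fat diet and 101, 119.7 and 133 CPM on the low-fat diet (2.30 ± 0.12, adjusted p = 1.16e-05). Lum, a collagen-binding proteoglycan, rose from 55.8, 65.8 and 75.7 to 208, 178, 178 and 190.3 CPM and the membrane protease Mmp14 from 69.8, 73 and 75.4 to 161, 155, 165 and 149 CPM. None of these 3 overlapped. Among collagens, Col12a1 changed by 3.12 ± 0.34, Col14a1 by 2.30 ± 0.19 and Col6a3 by 1.05 ± 0.098, and the fibrillar genes Col1a1 and Col3a1 by 0.72 ± 0.12 and 0.97 ± 0.085. Timp4, an inhibitor of matrix proteases made by adipocytes, fell from 552, 321 and 376 to 92.6, 77.3, 113 and 106 CPM (-2.10 ± 0.21), while Timp2 rose by 1.05 ± 0.077. Mmp9, the gelatinase of neutrophils and osteoclasts, fell from 12.5, 19.6 and 13.5 to 9.38, 8.57, 5.33 and 6.97 CPM. The collagen counts depend on the left-out library: with low-fat replicate 1, 2 collagens and 14 matrix genes were called higher. That library held 142 CPM of Col1a1, and with it the change of Col1a1 was 1.06 (adjusted p = 0.17), from low-fat values of 781, 749 and 1038 CPM without it.

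Adipose progenitor genes rose in 14 of 20 and fell in 2 (7 higher and 1 lower with low-fat replicate 1). Pi16, which marks the most uncommitted progenitors, was at 71.5, 70.3, 64.7 and 108 against 10.9, 25.1 and 37.2 CPM (1.69 ± 0.45, adjusted p = 0.0271), with high-fat replicate 6 above the others and the low-fat libraries spread. This call was lost without high-fat replicate 3, 4 or 6 or low-fat replicate 5 (adjusted p up to 0.0743). Dpp4, of the same cells, was at 16.9, 12.8, 21.2 and 22.2 against 4.96, 7.07 and 8.01 CPM, and with low-fat replicate 1 its change was -0.36 (adjusted p = 0.782). Ebf1 and F3, found in progenitors closer to adipocytes, fell by 0.75 ± 0.081 and 0.86 ± 0.10. Endothelial genes rose in 9 of 24 and fell in 3 (5 higher and 0 lower with low-fat replicate 1). Vwf, the von Willebrand factor of vessel walls, was at 123, 122, 128 and 129.5 against 67.1, 62 and 57.4 CPM (1.02 ± 0.065), and the apelin receptor Aplnr rose by 1.06 ± 0.11. The 3 that fell encode growth factors that act on vessels: Vegfa (571, 407 and 428 to 219, 204, 179.9 and 224 CPM), Vegfb (-1.08) and Angpt1 (-1.76). Of 12 smooth muscle and pericyte genes 3 rose and 0 fell (0 higher and 0 lower with low-fat replicate 1).

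Schwann cell genes, of the glia that wrap nerves, fell in 10 of 15 and rose in 1 (median -1.39, against -0.017 for all genes). Sox10, the factor that defines these cells, was at 1.83, 1.63, 1.88 and 0.702 CPM on the high-fat diet and 5.96, 5.39 and 8.51 CPM on the low-fat diet (-2.13 ± 0.33, adjusted p = 0.00125). The lowest library was high-fat replicate 6 and the highest low-fat replicate 6. Cdh19, a cadherin of this lineage, fell by 1.46 ± 0.19. Egr2, a myelin regulator also induced in macrophages, rose from 1.23, 1.52 and 4.38 to 11, 13.1, 12.8 and 11.4 CPM. Low-fat replicate 1 weakens this list, with 3 lower, and it held 317 CPM of Egr2, whose change with it was -2.76 (adjusted p = 0.276).

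Of stress and signal response genes, the immediate early list rose in 10 of 20 and fell in 1 (6 higher and 1 lower with low-fat replicate 1). Atf3 was at 33.7, 37.6, 38.4 and 29.5 CPM on the high-fat diet and 3.71, 4.25 and 3.98 CPM on the low-fat diet (3.13 ± 0.11, adjusted p = 6.46e-06), and Fos at 32.3, 59.4, 33.6 and 27.9 against 4.01, 3.44 and 8.79 CPM. Nr4a2 fell by 0.97 ± 0.12. Hmox1, heme oxygenase, rose from 22.7, 22.4 and 34 to 92, 122, 91.4 and 93.1 CPM, highest in high-fat replicate 4. In the same list of oxidative stress and iron genes 7 of 22 rose and 9 fell (2 higher and 7 lower with low-fat replicate 1), including the selenium-bearing peroxidase Gpx3 (820.4, 829 and 488 to 126, 114, 97.8 and 125 CPM) and Gsta4 (-2.71 ± 0.20). In the unfolded protein and integrated stress list 10 of 24 rose and 6 fell (0 higher and 3 lower with low-fat replicate 1). Its hormone gene Fgf21 rose by 1.51 ± 0.31. Against the list's median, the amino acid response genes Asns and Phgdh fell by 1.30 ± 0.11 and 1.11 ± 0.099. In the list of p53 targets and cell cycle inhibitors 9 of 19 rose and 4 fell (5 higher and 0 lower with low-fat replicate 1). Its member Gdf15, a stress hormone, rose from 0.529, 0.704 and 0.705 to 1.86, 2.53, 3.35 and 2.08 CPM. Cdkn1c (-0.90 ± 0.086), Cdkn2c (-0.83 ± 0.094) and Phlda3 (-0.55 ± 0.14) were among those that fell. Cdkn2a, which encodes p16 and p19, was at 0.584, 0.844, 0.748 and 0.646 against 0.195, 0.19 and 0.0503 CPM, low but without overlap (2.27 ± 0.42). Cdkn1a, p21, did not pass, at 124, 132, 160.4 and 129 against 149, 69.7 and 95.2 CPM (adjusted p = 0.264), and was called without low-fat replicate 3 (0.73, adjusted p = 0.0102).

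Azin2, the antizyme inhibitor that the series is about, was lower on the high-fat diet, at 12.2, 12.5, 14 and 14.4 CPM against 17.6, 20.1 and 23.5 CPM (-0.62 ± 0.11, adjusted p = 0.0018), without overlap and with -0.58 when low-fat replicate 1 was included. Antizymes shut off ornithine decarboxylase, the entry enzyme of polyamine synthesis, and antizyme inhibitors release it. Of 22 polyamine genes 5 rose and 5 fell, with a median of 0.0089 (3 higher and 3 lower with low-fat replicate 1). Odc1, ornithine decarboxylase, was at 88.4, 98, 83.1 and 89 against 101, 90.2 and 85.8 CPM and did not pass (-0.042 ± 0.076, adjusted p = 0.679). Sat1, the acetyltransferase that marks polyamines for export and breakdown, rose from 58.1, 58 and 68.7 to 97.3, 95.8, 86.4 and 82.3 CPM (0.55 ± 0.086). Low-fat replicate 1 held 254 CPM of Sat1, and with it the change was -0.28. Paox, which oxidises acetylated polyamines, fell by 0.74 ± 0.10, and the lysosomal polyamine exporter Atp13a2 rose by 0.55 ± 0.075. Of 19 histone acetylation and acetyl-CoA genes 9 fell and 2 rose (0 higher and 4 lower with low-fat replicate 1), including Crat (-0.91) and Hdac3 (-0.39).

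The genes of largest change were also ranked without regard to lists, among called protein-coding genes with a mean log2 CPM above 1, groups apart and no muscle mark. The largest rises of this ranking were mostly close to 0 in the low-fat group. Tm4sf19, a tetraspan membrane protein of macrophages and osteoclasts, was at 6.88, 11.8, 12.9 and 9.69 CPM on the high-fat diet and below 0.1 CPM in every low-fat library (7.12 ± 0.32). Itgad, an integrin of tissue macrophages, was at 73.4, 105, 143 and 129 against 0.362, 0.704 and 2.79 CPM, with low-fat replicate 6 the highest of its group. Gpr50, an orphan relative of the melatonin receptors, was at 10.4, 26.2, 9.43 and 14.5 against 0, 0.135 and 0.277 CPM, and Dhrs9, a retinol dehydrogenase, at 9.8, 13.9, 11.3 and 9.05 against 0.0279, 0.0271 and 0.277 CPM. The remaining 4 of the 8 largest rises were Myh15, Tmem132b, Cacng5 and Vsig8, between 6.09 and 7.09. Fitted changes of genes this close to 0 depend on the small count added in the fit and are not exact folds. The standard errors derived from such changes share this limit.

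On the falling side, Acsm3, which activates medium-chain fatty acids, was at 1.59, 0.354, 3.23 and 1.54 CPM on the high-fat diet and 32, 40.1 and 23.3 CPM on the low-fat diet (-4.23 ± 0.65). Cyp2f2, a cytochrome P450, was at 3.53, 1.74, 10.9 and 3.54 against 83.4, 120.4 and 45.9 CPM (-4.07 ± 0.73). In both, high-fat replicate 4 was lowest and replicate 5 highest of the high-fat group. Among the 8 largest falls were also Orm3, Ripk4, Prtn3, Mpzl2 and Cfd, from -3.29 to -3.93. Circadian genes as a list fell in 5 of 19 and rose in 1, against 23.5% of all genes in each direction (0 higher and 4 lower with low-fat replicate 1).

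**Figure D5:**
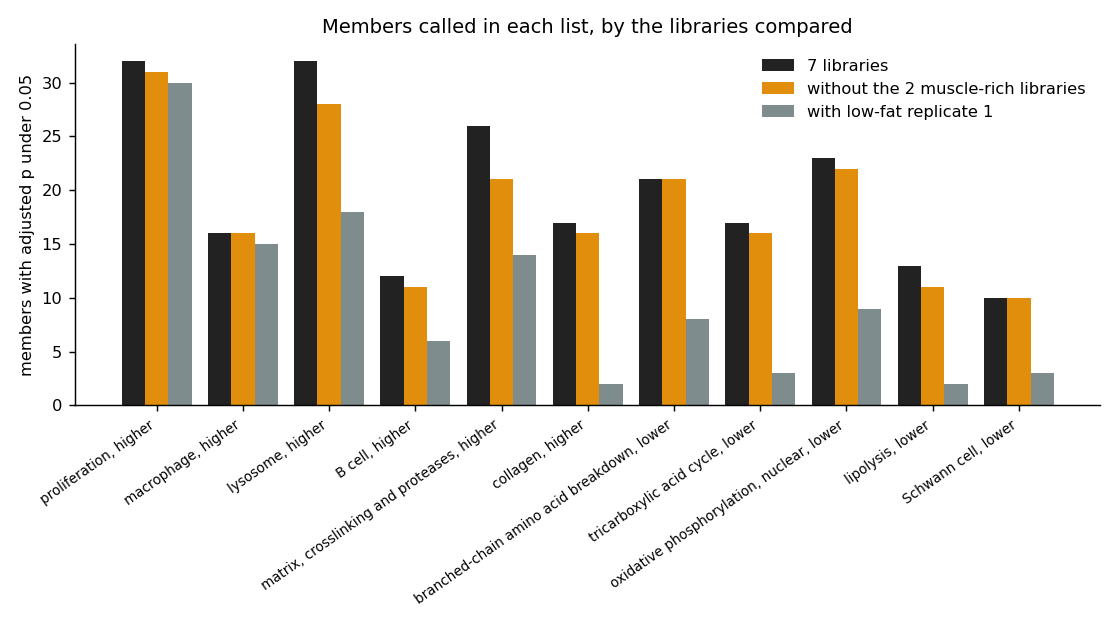
Number of list members called (adjusted p under 0.05) with the 7 libraries (black), without low-fat replicate 5 and high-fat replicate 6 (orange), and with low-fat replicate 1 added (grey); the direction counted stands after each list's name. With low-fat replicate 1 collagen drops from 17 to 2 and the tricarboxylic acid cycle from 17 to 3, and proliferation stays at 30 of 32.

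Putting low-fat replicate 1 back lowered the number of genes called from 8109 to 3622, of which 3612 were also called without it. Leaving out the 2 muscle-rich libraries gave 6701, 6310 of them shared. The next counts cover 193 genes named here. Cr2, Mitf, Tfe3, Tfeb, Cidec, Fabp4, Ckb, Zfp516, Cdkn1c, Cdkn2c and Phlda3 are not counted. With low-fat replicate 1, 53 lost their call with the sign unchanged. Another 4 (Dpp4, Egr2, Gk and Sat1) turned in sign and lost their call too.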

How the data were processed

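RNA of whole SAT was sequenced. The authors deposited 1 table of raw counts for each library, not normalised, with 1 row per Ensembl gene. Per the labels' protocols, the kit keeps strand and reads are paired. The submitters' processing notes name cutadapt, STAR, HTSeq 0.6.1p1 and the build GRCm38 (mm10). Not given in the sources used here are HTSeq's strand option and its annotation. Of 49585 identifiers, 49326 had a symbol in GENCODE M21, and the other 259 held 0.0103% of the counts.

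The 7 libraries alone entered edgeR 4.0.16 (R 4.3.3), with TMM factors, genes kept by filterByExpr at a minimum count of 10 and a total of 15, and the robust quasi-likelihood test. Levels of marker sums and of low-fat replicate 1 are CPM of the total count without TMM factors. The muscle mark used normalised CPM with 0.5 added. Low-fat replicate 1 was left out by the rule that defines the comparison. The members and the 58 gene lists were chosen with earlier results of these data known, some lists share genes, and counts over lists are descriptions without a set test.

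Named genes are 15 given whatever their p, the 8 largest changes per direction (called protein-coding genes, with a mean log2 CPM above 1, groups apart, no muscle mark), up to 4 members per list of smallest p with 2-fold change, and up to 3 that moved against their list. Some genes that this rule names are not reported here. Acly, Atp6v0d2, Atp6v1a, Bcat2, Ccl8, Ccnb1, Cdc20, Cdh1, Cdk1, Col1a1, Col3a1, Cox8b, Ctsd, Gpm6a, Lipe, Lrrn4, Lyve1, Mki67, Mmp12, Mrc1, Prdm16, Spp1, Timd4, Trem2 and Trp63 were picked after their values were seen.

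Beyond titles, the labels do not say that libraries are separate animals, so p-values measure the spread between these libraries. The edgeR and DESeq2 scripts were tested on simulated data. Alternatives were DESeq2 1.42.0 (its size factors and its Wald test), limma-voom (limma 3.58.1), no count filter, muscle level as covariate, the replicate block, and leaving out or adding libraries.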

Additional observations from a re-analysis of the deposited data

Results flagged for a closer look

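A high-fat library was looked at again where its gap to the nearest of the other three exceeded Dixon's 95% share of the group's range. Chance marks about 1 in 20 such groups. High-fat replicate 3 stood apart in Paox (highest, 19.8 CPM). High-fat replicate 4 stood apart in Hmox1 (highest, 122 CPM), Cacng5 (highest, 6.53 CPM) and Cxcl2 (highest, 1.82 CPM). High-fat replicate 5 stood apart in Il34 (highest, 23.4 CPM). High-fat replicate 6 stood apart in Pi16 (highest, 108 CPM). Of 151 genes and 13 marker lists checked in this way, 6 genes were marked. Also marked were the epididymis list (high-fat replicate 5, 0.697 CPM) and the skeletal muscle list (high-fat replicate 6, 7377 CPM). Low-fat replicate 1, which the comparison does not use, held 53410 CPM of epididymis transcripts.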

How the results depend on the processing

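The number of genes called was 8109 with the 7 libraries. It was 8146 with size factors of DESeq2, 7594 without a count filter, 8362 with DESeq2, 7875 with limma-voom and 7827 with muscle level as a covariate. Leaving out 1 library at a time gave 6867 to 7559, and for genes changed at least 2-fold 2083 to 2372. With low-fat replicate 1, 3622 genes were called, 1851 higher and 1771 lower, a difference of over 1.5 times, and the median of all genes moved from -0.017 to -0.09. Of all genes picked by the naming rule, printed above or not, signs that turned with low-fat replicate 1 were those of Dact2 (-0.878), Dpp4 (-0.357), Egr2 (-2.76), Gclm (-0.473), Gk (-0.595), Pappa (-0.157), Sat1 (-0.283), Sdc1 (-0.793) and Tbc1d1 (-0.223) (log2 change there in brackets). Genes near 0 that did not pass also changed sign: Timd4 with muscle level as a covariate (0.0656), Timd4 with the replicate block (0.0201), Odc1 on leaving out 1 library (-0.0926 to 0.028), Timd4 on leaving out 1 library (-0.261 to 0.00863). Leaving out 1 library changed the call of 13 of 193 named genes, each named beside its values. Cr2, Mitf, Tfe3, Tfeb, Cidec, Fabp4, Ckb, Zfp516, Cdkn1c, Cdkn2c and Phlda3 are not counted in these. Further counts moved by over 1.5 times on leaving out 1 library. Glycolysis genes called higher went from 2 to 1 (high-fat replicate 3, 4 or 6) and histone acetylation genes called higher from 2 to 1 (high-fat 3, 4 or 6, low-fat 5 or 6). Thermogenic genes called higher went from 3 to as many as 6 (low-fat 3 or 5). Counts of 1 went to 2 for immediate early genes lower (low-fat 3 or 6), lipolysis genes higher (low-fat 3), cytokine genes lower (low-fat 5) and circadian genes higher (high-fat 5), and to as many as 3 for fatty acid synthesis genes higher (low-fat 3 or 5). Without both muscle-rich libraries, 5 thermogenic, 2 fatty acid synthesis, 1 glycolysis and 1 histone acetylation genes were higher and 2 cytokine genes and 1 collagen lower. The cause of these reversals was not tested. Depth was similar among the 7 libraries, and values under 1 CPM rest on few reads.

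Replicate numbers are shared between the diets. Deviations of same-numbered libraries correlated at 0.429, -0.0245 and -0.132, and those of differently numbered libraries at -0.63 to 0.608. The extremes involve high-fat replicate 6, which is rich in muscle RNA. The main comparison did not pair the libraries, and these few values cannot show whether the numbers mark a shared origin. With the replicate block, 5858 genes were called, and fewer degrees of freedom remain in that fit.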

Other observations

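Genes linked to cell fusion and osteoclasts, brought together after their values were seen, did not move as 1 group. Besides Tm4sf19, Dcstamp and Atp6v0d2, Ocstamp, a membrane protein needed for fusion, rose from 0.307, 0.298 and 0.252 to 1.14, 1.42, 1.62 and 0.955 CPM (2.16 ± 0.27), and Tnfrsf11a, the receptor RANK, from 5.29, 5.55 and 7.07 to 21.6, 28.4, 22.9 and 20.9 CPM. Ctsk, the protease that digests bone collagen, rose from 41, 43 and 46.4 to 153, 174, 158 and 146 CPM. Acp5 and Mmp9, also typical of osteoclasts, fell, and the receptor gene Oscar did not pass (-0.53 ± 0.36, adjusted p = 0.253).

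Of 10 tested neighbours of Cfd within 50 kb, 5 fell and 5 did not pass. Prtn3 and Elane, neutrophil protease genes next to Cfd, changed by -3.53 ± 0.29 and -1.72 ± 0.38, Plppr3 and Kiss1r by -1.86 ± 0.15 and -0.93 ± 0.16, and R3hdm4 by -0.51 ± 0.053. Med16, annotated from 3.9 kb after the start of Cfd and on the other strand, did not pass (0.21 ± 0.09, adjusted p = 0.0876), but did without low-fat replicate 3 (adjusted p = 0.0201). Prtn3 and Elane were low, at 12.3, 15.9 and 6.7 and 0.892, 1.3 and 1.31 CPM on the low-fat diet, while the neutrophil gene S100a8 rose from 1.23, 1.25 and 2.52 to 7.6, 7.18, 3.69 and 5.25 CPM.

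Genes better known from nerve and from reproductive tissue also rose, picked after their values were seen. Tph2, the neuronal enzyme of serotonin synthesis, was at 114, 136, 132 and 131 CPM on the high-fat diet and 1.48, 2.46 and 9.57 CPM on the low-fat diet (4.82 ± 0.74). Slc5a7, the choline transporter of cholinergic nerves, was at 95.5, 142, 87.9 and 133 against 8.61, 10.2 and 22 CPM, and Oxtr, the oxytocin receptor, at 347, 481, 370.2 and 438 against 44.2, 18.6 and 52 CPM. None of the 3 overlapped between diets.

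Glycogen and imprinted genes, also picked with their values in view, split. The phosphorylases Pygl and Pygb fell by 1.65 ± 0.15 and 1.49 ± 0.072 and the synthase Gys1 by 1.16 ± 0.092, while Gys2, the liver form of the synthase, rose by 0.87 ± 0.18. Plagl1, an imprinted gene, fell from 72.1, 90.9 and 101 to 41.4, 37.4, 42.6 and 51.9 CPM, and Zim1, next to Peg3, rose from 4.46, 8.91 and 8.13 to 32.4, 40.8, 23.6 and 44.6 CPM.

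By annotated type, protein-coding genes were called higher in 3767 and lower in 3422 of 14543. Among noncoding types, antisense genes held 53 higher and 196 lower of 597, lincRNA genes 73 and 126 of 475, processed transcripts 25 and 101 of 301, and sense intronic genes 7 and 6 of 62. Without the counting's strand setting, reads of an antisense gene and its partner cannot be told apart. Families by symbol, picked after their values were seen, held 15 higher and 1 lower of 23 Clec genes (C-type lectins), 8 higher and 0 lower of 10 Serpinb genes, 12 higher and 2 lower of 17 Adamts proteases, and 0 higher and 8 lower of 8 Ndufs genes of respiratory complex I.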
